A study of Drosophila melanogaster with 4 samples.

Results

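The Wnt gene cluster around wg is a stretch of chromosome arm 2L that holds 4 genes for secreted signalling proteins, namely wg, Wnt4, Wnt6 and Wnt10. It was examined for H3K27me2 (histone H3 dimethylated at lysine 27) in wild-type embryos of Drosophila melanogaster. The members were chosen by position, as every called region that overlaps the interval from 7.24 to 7.37 Mb of 2L on FlyBase release 5. This window of 130001 bp is called the Wnt window here. The 200 kb of lower coordinates is called the left flank (2L:7040000-7239999), and the 200 kb of higher coordinates is called the right flank (2L:7370001-7570000). The Wnt window held 10 of the 12968 regions of ChIP replicate 1 and 6 of the 11483 regions of ChIP replicate 2. It held 21 of the 17184 regions of a further list given by the authors for the whole series, referred to as the combined list. Its name calls it a replicate set, and how it was made is not stated. On arm 2L the lists held 2347, 2028 and 3202 regions in the same order.

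The study profiled whole embryos of the Oregon-R-modENCODE strain, aged 14 to 16 h, by chromatin immunoprecipitation and sequencing (ChIP-seq). The series comprised 2 ChIP samples, made with the antibody Ab24684 against H3K27me2, and 2 samples of input DNA. All 4 samples shared the strain, the wild-type genotype and the stage. The deposited lists give a position and the authors' score for each region but no read counts, so the depth is unknown, and sequence outside the regions is called uncalled, not unmarked. Each sample pooled all cells of many embryos. A stretch marked in few cells and a stretch marked weakly in all cells cannot be told apart.

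Wnt proteins are lipid-modified ligands that bind Frizzled receptors together with the co-receptor Arrow and, through Armadillo, the fly beta-catenin, change transcription in the receiving cell. The gene wg (wingless) is the founding fly Wnt gene and a segment polarity gene that patterns the embryonic epidermis and later the wing. Wnt4 acts in motor axon targeting and in cell movements of the ovary, Wnt6 is needed for the maxillary palps, and Wnt10 belongs to the same family by its protein. H3K27me2 is laid down by Polycomb repressive complex 2, the enzyme that also makes the trimethylated form found over silenced developmental genes. In flies the dimethylated form is spread over much of the inactive euchromatin. Of these forms, H3K27me2 alone was measured here.

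All 4 Wnt genes were matched by symbol in the RefSeq gene table of Release 6. In that table they follow each other along 2L in the order Wnt4, wg, Wnt6 and Wnt10. The only other genes that start between the first and the last of them are CG31909 and the noncoding RNA gene CR45304. CG13786 comes before Wnt4. After Wnt10 come an antisense RNA gene, CR44063, and ninaC, which encodes an unconventional myosin of photoreceptors. Only this order was taken from the table, because the regions are placed on release 5. The values below therefore describe the cluster and positions within it, and none is assigned to wg, Wnt4, Wnt6 or Wnt10 alone.

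**Figure D1:**
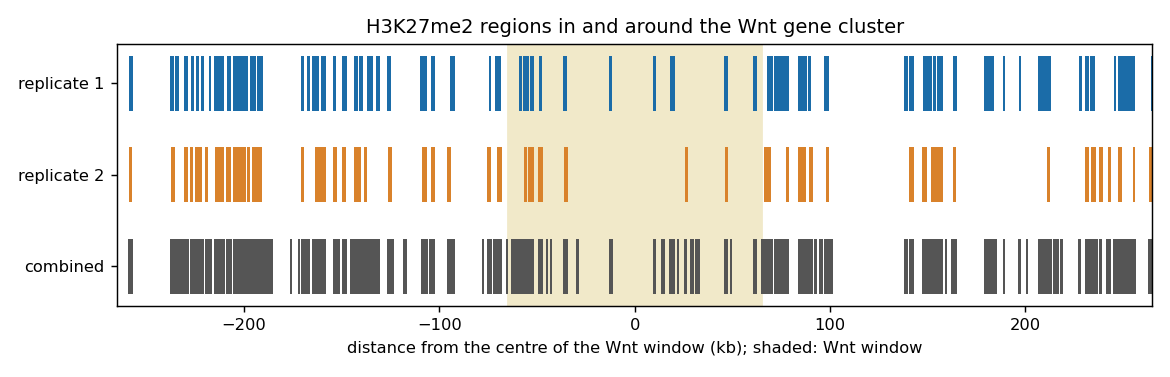
Position of every called H3K27me2 region (bars, to scale) in each replicate and in the combined list, against the distance from the centre of the Wnt window in kb. The shaded Wnt window holds 10, 6 and 21 regions, and most of the shared ones lie near its left edge.

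The Wnt window was sparsely covered by H3K27me2 regions. Regions took up 14.5% of its sequence in replicate 1 (18.9 kb) and 9.03% in replicate 2 (11.7 kb), a mean of 11.8% ± 3.89 (SD, n = 2). In the 2 flanks together regions took up 34.7% in replicate 1 and 25.5% in replicate 2, a mean of 30.1% ± 6.53 (SD, n = 2). Over the whole of 2L the shares were 27.7% and 21.8%, a mean of 24.7% ± 4.18 (SD, n = 2). Both values of the Wnt window lay below both values of the flanks and of the arm.

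Within each replicate the shortfall was larger than the spread between replicates. The Wnt window minus both flanks was -20.2 percentage points in replicate 1 and -16.4 points in replicate 2, a mean of -18.3 ± 2.64 points (SD, n = 2). The Wnt window minus the rest of 2L was -13.2 points in replicate 1 and -12.8 points in replicate 2, a mean of -13.0 ± 0.292 points (SD, n = 2). As a ratio, the window held 0.419 times the covered share of its flanks in replicate 1 and 0.355 times in replicate 2. With 2 replicates, p = 0.5 is the smallest value that a two-sided exact permutation test by sign flips can give, so no test across samples was made. Separate embryo collections are not stated for the 2 ChIP samples, and their spread may be technical.

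The flanks were not alike. The left flank had 35.9% covered in replicate 1 and 30.9% in replicate 2, and the right flank had 33.5% and 20.0%. The Wnt window minus the left flank was -21.6 ± 0.331 points, and the Wnt window minus the right flank was -15.0 ± 5.61 points (SD, n = 2 for both). In the authors' combined list 32.5% of the Wnt window was covered, against 56.0% of the left flank, 48.8% of the right flank and 45.8% of 2L. The size of the difference depended on where the window was set. With the window widened by 20 kb on each side the mean difference from both flanks was -10.4 points, and with the window narrowed by 20 kb it was -24.4 points. The flanks compared with the widened window were not the same sequence as above, so that change need not come from the window alone.

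**Figure D2:**
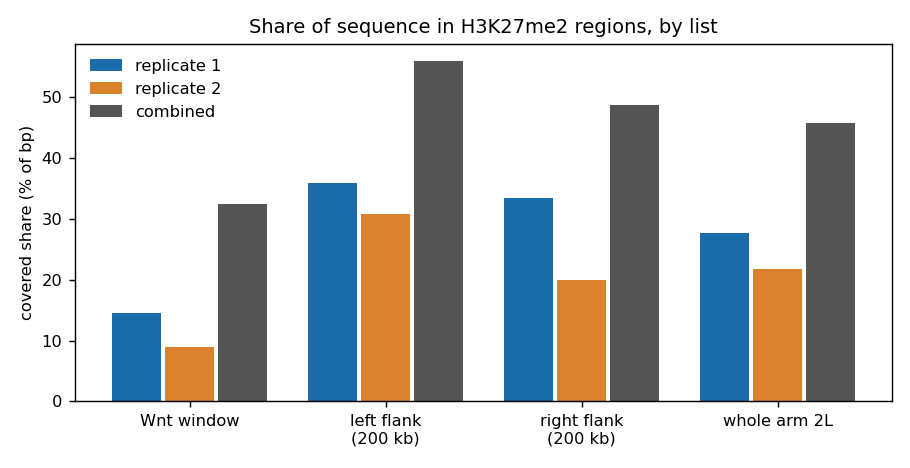
Share of sequence inside called H3K27me2 regions, in percent of base pairs, for the Wnt window, the left and right flanks and the whole of arm 2L. Each bar is 1 list, with no error bar, and the bars of the Wnt window (14.5%, 9.03% and 32.5%) are the lowest of their list among the 4 areas.

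Set against every window of the same length on 2L, moved along the arm in steps of 1 kb, the Wnt window lay in the lower part of the distribution but not at its end. Of the 22882 windows, 15.0% had a lower covered share in replicate 1 and 11.5% had a lower one in replicate 2. The median over these windows was 27.4% in replicate 1 and 20.6% in replicate 2, and they ran from 0 to 63.7% and from 0 to 59.8%. A lower share in both replicates was found in 2338 windows, or 10.2%. Of those, 730 started beyond 20 Mb, in the proximal part of the arm, where 2882 of all windows started. In the combined list 19.4% of the windows were lower than the Wnt window. The place in the distribution depended on the window's limits. As a mean of both replicates 13.3% of the windows were lower, against 25.8% with the window widened by 20 kb on each side and 6.62% with it narrowed by 20 kb. These windows overlap each other and are not replicates, so the percentages describe the arm and carry no p-value.

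**Figure D3:**
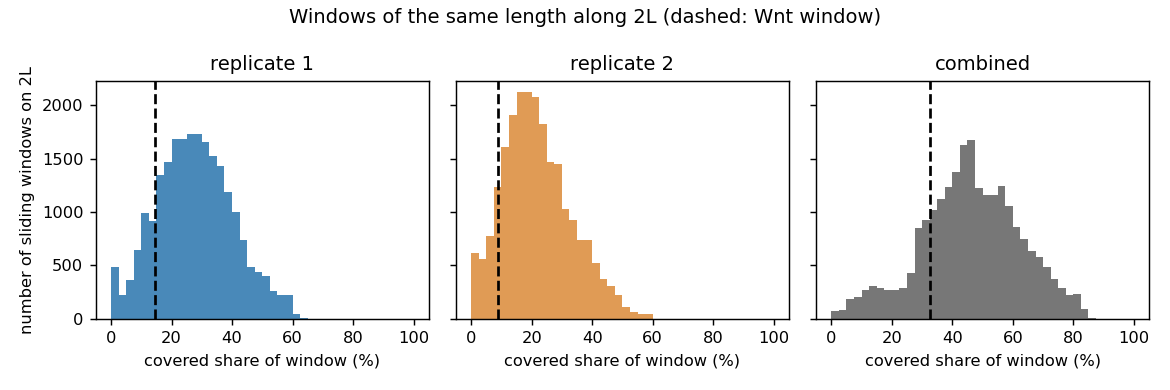
Histograms of the covered share (percent of base pairs, in steps of 2.5) over the 22882 windows of 130001 bp along 2L, for each replicate and for the combined list. The dashed line marks the Wnt window, below the lower quartile of the windows in each panel (18.9%, 13.9% and 35.7%).

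Counted as tiles of 1 kb, with a tile called when at least 50% of it was covered, 19 of the 130 tiles of the Wnt window were called in replicate 1 (14.6%). Over all 23011 tiles of 2L the share in replicate 1 was 28.1%. In replicate 2, 12 tiles of the window were called (9.23%), where 22.1% of the tiles of 2L were called. In the combined list 41 tiles were called (31.5%), where the arm had 46.7%. Of the 400 flanking tiles, 145 were called in replicate 1, 106 in replicate 2 and 215 by the authors' combined calling.

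The share of the Wnt window was also lower under the other tile rules. These rules recount the same regions, so they give no independent support. With any tile counted that had at least 1 bp covered, the window had 28 called in replicate 1 (21.5%) and 18 in replicate 2 (13.8%), and the combined list had 57 (43.8%). Under that rule the arm had 36.4%, 29.4% and 56.2% of its tiles called in the same lists. Counting tiles covered from end to end left 10 tiles in replicate 1 (7.69%) and 6 in replicate 2 (4.62%), with 20 for the combined list (15.4%), beside arm values of 17.5%, 12.9% and 31.9%.

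In the replicate lists the Wnt window held fewer regions per length, and these were narrower. It had 7.69 regions per 100 kb in replicate 1 and 4.62 in replicate 2, against 13.8 and 10.2 in the flanks and 10.2 and 8.81 on 2L. At the median, regions of the window measured 1816.5 bp (replicate 1) and 1642.5 bp (replicate 2), against 2121 bp and 2035 bp in the flanks. The combined list differed in this respect. There the Wnt window had 16.2 regions per 100 kb, against 13.8 in the flanks and 13.9 on 2L, and the lower covered share went with a median width of 1875 bp, against 2753 bp in the flanks. That density includes 1 region across each edge, both mostly outside the window and counted in the flanks too. Without them it would be nearer to that of 2L.

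Coverage within the Wnt window was concentrated near its left edge. The window was divided into 13 bins of 10 kb for this description, which was made after the values were seen. The first 20 kb held 44.8% of the covered length of the window in replicate 1 and 60.1% in replicate 2, while the combined list had 35.7% of it there. The bin from 7250000 to 7259999 was the highest of the window in each replicate, at 44.4% in replicate 1 and 56.0% in replicate 2. Among the 40 bins of the flanks, the highest reached 89.2% in replicate 1 and 88.3% in replicate 2, in the bin from 7100000 to 7109999.

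Bins without any region were not clearly more frequent in the window in replicate 1. They numbered 4 of 13 (30.8%), close to the 29.0% of all 10 kb bins of 2L. In replicate 2 they numbered 7 of 13 (53.8%), where the arm had 36.6%. In the combined list they numbered 3 of 13 (23.1%), where the arm had 15.8%. Of the 40 flanking bins, 8 were empty in replicate 1, 10 in replicate 2 and 5 in the authors' combined list.

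**Figure D4:**
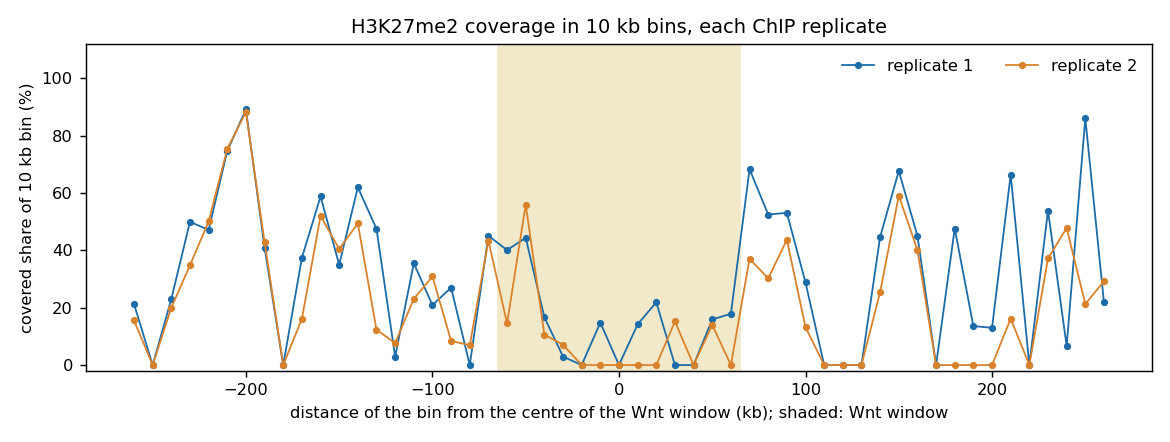
Covered share of each 10 kb bin, in percent, in replicate 1 and replicate 2, against the distance of the bin from the centre of the shaded Wnt window in kb. Inside the window both lines reach their highest value in the second bin (44.4% and 56.0%) and stay at or below 21.9% from the third bin on.

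A total of 6 stretches inside the Wnt window, adding up to 8464 bp, were covered in both replicates. Of these, 5 lay in the left part of the window and 1 near its right end. The leftmost group ran over 2L:7248484-7249929, 2L:7250173-7251081 and 2L:7251411-7253377. It was followed by 2L:7256161-7257547 (1387 bp) and 2L:7268941-7270294 (1354 bp). The last shared stretch lay far to the right, at 2L:7351104-7352504 (1401 bp). No sequence between these last 2 stretches was covered in both replicates.

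The leftmost group corresponded to a single region of the combined list. That region spanned 8923 bp from 7244568 to 7253490 and was the widest of the combined list in the Wnt window, at width percentile 94.5 of that list. Replicate 1 had 3 regions in it, of 1842 bp, 3255 bp and 1967 bp, covering 79.2% of its length. Replicate 2 had 2 regions in it, of 1446 bp and 3265 bp, covering 52.8%. The regions of 3255 bp (7247827 to 7251081) and 3265 bp (7250173 to 7253437) were the widest of their replicate in the window. Neither was among the widest of its whole list, with width percentiles of 75.2 and 81.4.

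At the other shared places the regions of all lists were between 1387 bp and 2749 bp wide. At 7256161 to 7257547 replicate 1 had a region of 1387 bp, which lay wholly inside a region of 2337 bp of replicate 2 (7255675 to 7258011). The combined region there had 2577 bp, from 7255416 to 7257992. Around 7268941 to 7270294 the region of replicate 1 was 1966 bp wide and that of replicate 2 was 1766 bp wide. The combined list gave a region of 2749 bp there, from 7268162 to 7270910. Near the right end the region of replicate 1 measured 1592 bp (7350913 to 7352504) and that of replicate 2 measured 1402 bp (7351104 to 7352505).

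The replicates called different sequence in the middle of the window. Replicate 1 alone had regions from 7291906 to 7293382, from 7314213 to 7315629 and from 7323187 to 7325374, and another from 7365632 to 7367422 near the right edge. Its first region, from 7245615 to 7247456, also had no overlap in replicate 2. Replicate 2 alone had 1 region, from 7330512 to 7332030. The combined list had a region of 2747 bp, from 7322614 to 7325360, around the third of these regions of replicate 1. Each of the 6 regions called in a single replicate lay at 95.7% or more of its length inside a region of the combined list.

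Of the regions of replicate 1, 5 of 10 (50.0%) overlapped a region of replicate 2 by at least 1 bp, where 67.4% of its regions on 2L did so. Of the regions of replicate 2, 5 of 6 (83.3%) overlapped replicate 1, where the share on 2L was 82.1%. In the flanks the counts were 42 of 55 in replicate 1 and 37 of 41 in replicate 2. The Jaccard index, the length covered in both replicates divided by the length covered in either, was 0.382 in the Wnt window, against 0.510 in both flanks, 0.587 in the left flank, 0.424 in the right flank and 0.493 on 2L. The index depends on how much sequence is covered, so these values were not ranked. The shared sequence made up 44.8% of the covered length of replicate 1 in the window and 72.1% of that of replicate 2.

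The combined list had more regions in the Wnt window than the replicate lists account for. Of its 21 regions, 5 overlapped both replicates (23.8%), where 39.6% of its regions on 2L did so. Among these 5, the region from 7369626 to 7375970 crosses the right edge and met both replicates only outside the window. A further 4 overlapped replicate 1 only (19.0%), close to the 19.6% on 2L. Replicate 2 only was overlapped by 1 (4.76%), where the share on 2L was 9.24%. The other 11 overlapped neither (52.4%), where the share on 2L was 31.6% and the flanks had 14 of 55. The 5 that overlapped both replicates had a median score percentile of 53.5, against 71.0 on 2L. The 11 that overlapped neither had a median width of 1229 bp and a median score percentile of 21.7, against 21.4 on 2L. They include the region of 1007 bp from 7239156 to 7240162, which crosses the left edge. Both regions across an edge are counted in the window and in the flanks. The narrowest region in the replicate lists measured 1301 bp, and 7 of the 11 were below that width (63.6%), where 40.8% of the combined regions on 2L without overlap in either replicate were. The part of width in the missing overlap was not tested. The widest of the 11 measured 2317 bp, from 7335954 to 7338270, and had a score percentile of 53.4.

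Scores of the regions in the Wnt window were low within their lists. The score is the authors' own value per region and has no named scale, so each is given as the percent of regions of its list with a lower score. The median was 24.9 in replicate 1 and 31.6 in replicate 2, a mean of 28.3 ± 4.75 (SD, n = 2), against 40.3 and 42.2 in the flanks and 42.7 and 43.8 on 2L. The combined list gave 33.7 in the window, 55.0 in the flanks and 39.9 on 2L. A score at or above the median of its list was found for 1 of 10 regions of the window in replicate 1, where 42.8% of the regions on 2L had one. In replicate 2 it was found for 0 of 6 regions, where 42.5% on 2L had one, and in the combined list for 5 of 21 regions, where 39.4% had one. Regions at or above the median score covered 1.68% of the Wnt window, 15.3% of the flanks and 16.1% of 2L in replicate 1. In replicate 2 they covered 0% of the window, 9.20% of the flanks and 12.0% of 2L. Flanking regions reached the median in 20 of 55 cases in replicate 1 and 13 of 41 in replicate 2. Regions in the window were also narrower at the median, and the part of width in the scores was not tested.

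In each replicate the highest score in the window did not lie in the leftmost group of shared stretches. In replicate 1 the highest was that of the region from 7323187 to 7325374 (2188 bp), at percentile 60.5, and this region had no counterpart in replicate 2. Next were the regions from 7350913 to 7352504, at percentile 39.8, and from 7291906 to 7293382, at 37.6. The lowest was that of the region from 7314213 to 7315629, at percentile 1.13. In replicate 2 the scores ran from percentile 19.2 to 46.0. The highest of them, at 46.0, belonged to the region from 7351104 to 7352505, followed by 45.8 for 7255675 to 7258011 and 35.6 for 7268941 to 7270706. Each of these regions overlapped replicate 1. The only region of replicate 2 without such overlap, from 7330512 to 7332030, was at percentile 27.6.

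In the combined list the highest score in the Wnt window belonged to a region that crosses its right edge. It spanned 6345 bp from 7369626 to 7375970 and had a score percentile of 80.8. Replicate 1 covered 50.2% of this region and replicate 2 covered 58.4%, in both cases by sequence outside the window. The next highest were the region from 7268162 to 7270910, at percentile 60.3, and the region of 8923 bp at the left, at 53.5. Replicate 1 had its next region 2738 bp beyond the right edge, and replicate 2 had its next 1229 bp beyond it. Of the first 10 kb beyond that edge, replicate 1 covered 68.3% and replicate 2 covered 37.1%, whereas the last 10 kb inside it had 17.9% and 0%.

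**Figure D5:**
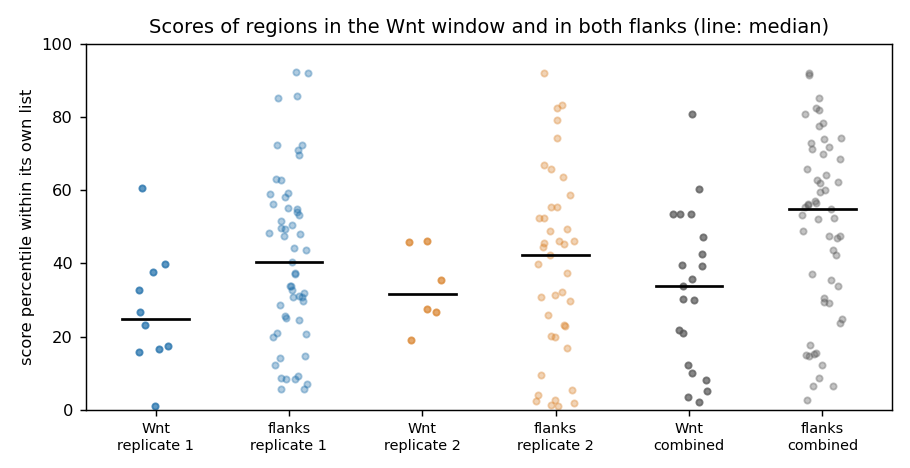
Score percentile of every region within its own list, for the Wnt window and both flanks in all 3 lists (points, with horizontal scatter for legibility; black lines are medians). The median of the Wnt window lies below that of the flanks in each list (24.9 against 40.3, 31.6 against 42.2 and 33.7 against 55.0).

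In each replicate long uncalled stretches took up much of the middle of the Wnt window, but the lists disagreed there. The longest of replicate 1 that touched the window was 25538 bp, from 7325375 to 7350912, and 2 others, of 21611 bp and 20830 bp, lay from 7270295 to 7291905 and from 7293383 to 7314212. Of the 2347 uncalled stretches of replicate 1 on 2L, 5.84% were at least as long as the first of these, 7.63% as the second and 8.22% as the third. Such shares count stretches, not the sequence they hold. In the right flank replicate 1 had a longer stretch than these, of 38360 bp from 7404631 to 7442990. Replicate 2 had 59805 bp without a region, from 7270707 to 7330511. Of its 2028 uncalled stretches on 2L, 33 were at least that long (1.63%). In that interval replicate 1 had 3 regions. Likewise, the stretch of 25538 bp in replicate 1 held the replicate 2 region from 7330512 to 7332030. It also held regions of the combined list, the widest of them from 7335954 to 7338270. The combined list covered 64.1% of the bin from 7330000 to 7339999.

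Taking all 3 lists at once, 4 uncalled stretches of at least 10 kb lay in the window. They ran from 7276203 to 7291855 (15653 bp), from 7293811 to 7314211 (20401 bp), from 7338271 to 7350579 (12309 bp) and from 7354921 to 7365607 (10687 bp). Of the 3146 uncalled stretches of any length on 2L, 120 (3.81%) were at least as long as the longest of these. At least as long as the shortest of these were 266 (8.46%). The right flank held a longer one, of 36473 bp from 7406465 to 7442937, and the longest of the left flank had 19236 bp. Uncalled stretches of this length therefore also occurred beside the cluster. Since no read counts were given, poor read coverage and absence of the mark cannot be told apart in such a stretch.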

How the data were processed

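H3K27me2 ChIP-seq was deposited for 2 ChIP samples and 2 inputs, and the inputs entered no comparison here. Crosslinking used 1.8% formaldehyde and the antibody step lasted 15 h, per the labels' protocols. The submitters' processing notes name Bowtie 0.12.7. The caller, the threshold and the pooling of the combined list are not stated there or in the labels and headers. The deposited value per region is a score of unnamed scale, and positions are on FlyBase release 5, per the file headers. Groups followed the sample titles.

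Covered length was the union of regions. Percentiles, tiles, bins, uncalled stretches and windows were computed with Python 3.11.15, numpy 2.4.6 and pandas 2.3.3 and drawn with matplotlib 3.10.9. Interval arithmetic was tested on simulated data. Regions were to be named where among the 5 widest or 3 highest-scoring of their list in the window; others named were chosen after their values were seen. The window, the members and the lists were chosen with earlier results of these data known. Alternatives were score thresholds, merging, the combined list, other windows, flanks and tile rules, and leaving out each replicate. Protein and promoter sequences were planned but not used here.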

Additional observations from a re-analysis of the deposited data

How the results depend on the processing

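The Wnt window stayed below its flanks under every alternative run for that difference. Keeping the upper-scoring 50% of each list left 1 region in replicate 1 and 0 in replicate 2. The covered share was 0.842%, the difference from the flanks -11.4 points, and 0.769% of tiles were called. Equal-length windows on 2L with a lower share (lower windows) made up 2.62% as a mean. No window can lie below the 0% covered in replicate 2, so its part of that mean was fixed at 0. The Jaccard index of 0 was fixed in the same way, and the score percentile could not be computed. In the authors' combined list the covered share was 32.5%, the lower windows 19.4%, the called tiles 31.5% and the score percentile 33.7. Widening the window by 20 kb on each side gave 17.3%, -10.4 points, 25.8% lower windows, 17.4% of tiles, score percentile 36.5 and a Jaccard index of 0.423. The flanks in that difference also changed. Narrowing it by 20 kb gave 5.74%, -24.4 points, 6.62% lower windows, 5.56% of tiles and a Jaccard index of 0.151. The index was 0.408 with equal numbers of top-scoring regions and 0.401 with merging. The difference was -21.6 points from the left and -15.0 points from the right flank. Called tiles were 17.7% with at least 1 bp covered and 6.15% with the whole tile covered. Where not stated, the cause was not tested.

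Leaving out a replicate gave covered shares of 9.03% to 14.5%, differences of -20.2 to -16.4 points, 11.5% to 15.0% lower windows, 9.23% to 14.6% of tiles and score percentiles of 24.9 to 31.6. Lower windows were 13.6% with windows that do not overlap, 13.9% over the 5 major arms and, chosen after seeing the data, 11.3% in the first 20 Mb of 2L. No paired analysis was possible because ChIP and input, the groups that share replicate numbers, cannot be set side by side without region lists of the inputs; differences between the window and its flanks were taken within each replicate. Unknown depth limits what uncalled sequence can show.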
